A study of Mus musculus with 12 samples.

Results

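The genes described here are the translation initiation factors (Eif genes) and elongation factors (Eef genes), with the enzymes and binding proteins that share those names. The set was every protein-coding gene whose symbol begins with Eif or Eef followed by a digit, other than the Y-linked copy of Eif2s3x, which gave 67 of the 54532 genes in the count table and of its 22046 protein-coding genes. RNA was measured by bulk poly-A RNA-seq in 12 libraries from the ovaries of female mouse embryos at E15.5 (E, embryonic day), in 4 groups of 3. All embryos came from the Tg(Pou5f1-EGFP)2Mnn line, in which regulatory sequence of Pou5f1 (OCT4) drives a green fluorescent protein, and cells of the ovary were sorted on that fluorescence into a GFP-positive germ cell and a GFP-negative somatic fraction. Dams had received 10 µg of dexamethasone (dex, a synthetic glucocorticoid receptor agonist) per g of body weight, or saline vehicle, by intraperitoneal injection on each of 4 days from E12.5 to E15.5. Each library pooled ovaries from separately dosed litters, so that the spread between libraries is a spread between pools. The GFP-negative fraction holds every other cell type of the fetal ovary, and in such bulk samples fewer cells of a type and less RNA per cell cannot be told apart.

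Translation of most cellular mRNAs begins when eIF4E binds the cap, eIF4G bridges it to the helicase eIF4A and to eIF3 on the small ribosomal subunit, and eIF2 delivers the initiator methionyl-tRNA. eIF1 and eIF1A guard the choice of the start codon, and eIF5 and eIF5B complete GTP hydrolysis and subunit joining. Initiation is restrained through 4E-BP proteins that occupy eIF4E and through kinases that phosphorylate eIF2 alpha and so block its exchange factor eIF2B, and elongation is restrained through eEF2K, the kinase that inhibits eEF2. Growing oocytes are known for storing mRNA in a repressed form, with eIF4E-binding proteins among the repressors.

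Libraries held 14658503 to 18245507 counts, at which 3 counts, taken as the limit of detection, equalled 0.169 to 0.201 CPM (the usual library-scaled count, here with edgeR's TMM factors). The 8 germ cell markers examined summed to 2686 to 3216 CPM in germ libraries and to 4.97 to 24.9 CPM in somatic libraries. The 8 pregranulosa markers summed to 26.5 to 125 CPM in germ libraries and to 1137 to 1437 CPM in somatic libraries. The 6 macrophage markers summed to 32.5 to 48.5 CPM in germ libraries, to 174 to 243 CPM in somatic saline libraries and to 45.0 to 119 CPM in somatic dex libraries, and the 6 endothelial markers to 45.5 to 59.4 CPM in germ and 275 to 341 CPM in somatic libraries. The 8 stromal markers summed to 122 to 256 CPM in germ and 19777 to 25744 CPM in somatic libraries. For the 8 erythroid markers the sums were 9.97 to 48.7 CPM in germ and 3332 to 16541 CPM in somatic libraries. The source of the markers of one cell type in the fraction of another was not tested, nor was their part in the results beyond the values given beside them.

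Several sequences help to place the results. The first is the 250 bases before the first annotated start of Eef2k, the gene with the widest contrasts in the set, on the plus strand at chr7:120842581-120842830 (GRCm38.p6, RefSeq). Capitals mark a CACGTG E-box, a motif bound by basic helix-loop-helix factors including MYC and CLOCK, whose first base lies 31 bases before the start.

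Eef2k: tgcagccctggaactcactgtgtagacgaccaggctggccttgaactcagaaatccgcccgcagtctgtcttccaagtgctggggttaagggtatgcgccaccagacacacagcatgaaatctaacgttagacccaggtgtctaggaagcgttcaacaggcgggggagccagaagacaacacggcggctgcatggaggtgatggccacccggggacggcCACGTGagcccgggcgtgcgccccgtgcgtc

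RefSeq promoter windows of 300 bases (250 before and 50 from the start) were at hand for 51 of the 67 genes. The letters CACGTG, which read alike on both strands, were found in a window of 13 of those 51 genes, 25.5%, against 8.91% of 17492 protein-coding genes and 8.09% of all 27025 genes with a window. Among genes with a single window the shares were 22.7% of 44 members and 7.72% of 14731 protein-coding genes. The 13 were Eef1akmt4, Eef2, Eef2k, Eif1b, Eif3a, Eif3f, Eif3k, Eif4a1, Eif4e, Eif4g1, Eif4h, Eif5a and Eif5a2. Of these, Eif4e and Eif5a2 each carried 2 matches upstream of one start, and the 30 bases around each are shown with those of Eef2 and Eif1b, the E-box in capitals, to let the flanks be compared.

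Eif4e, chr3:138527028-138527057 (+): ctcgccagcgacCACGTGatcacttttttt
Eif4e, chr3:138527192-138527221 (+): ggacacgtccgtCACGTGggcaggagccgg
Eef2, chr10:81176576-81176605 (+): acccggcgccgtCACGTGacgcacccaacc
Eif1b, chr9:120492570-120492599 (+): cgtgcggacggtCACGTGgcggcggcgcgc
Eif5a2, chr3:28781123-28781152 (+): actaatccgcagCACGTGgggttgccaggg
Eif5a2, chr3:28781148-28781177 (+): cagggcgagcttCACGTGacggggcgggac

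The glucocorticoid receptor binds an inverted repeat of AGAACA half-sites. Its palindromic core, searched as ACANNNTGT, was found in a window of 1 member (Eif5a), 1.96% against 6.95% of protein-coding genes. The half-site AGAACA on either strand was found in 7 members, 13.7% against 18.5% of protein-coding genes, among them Eif1 (chr11:100319789-100319818, plus strand, 148 bases before the start, ccctgagtcaacAGAACAtcctttccaggc, half-site in capitals). None of the 3 Eef2k windows held either motif, which says only that these letters are not in those windows.

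By level per length of transcript, in FPKM (counts divided by exon length and by depth), elongation factors led the set in every group. Eef1a1, which brings aminoacyl-tRNA to the ribosome, had a level of 2031 ± 41.5 FPKM (SD, n = 3) in germ saline and 3812 ± 92.5 in somatic saline libraries. Eef2, the translocase, followed at 805 ± 55.2 and 788 ± 38.7 FPKM. In saline libraries the median level over the 67 genes was 26.9 FPKM in germ cells and 19.1 in somatic cells, and 12 genes exceeded 100 FPKM in each. Eef1a1 alone made up 23.2% to 24.4% of all counts of the set in germ libraries and 40.9% to 43.1% in somatic libraries. The set took 1.99% to 2.12% of germ library counts and 2.36% to 2.57% of somatic library counts, ranges that did not overlap. These totals include Eef1a1, so they do not show that the other members as a group were higher in somatic cells. With Eef1a1 left out, the other members together took a larger share of counts in every germ library than in any somatic library.

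A few members were at or near the limit of detection. Eif4e1b, an oocyte form of the cap-binding protein, had 0 counts in all 12 libraries, which allows at most the 3 counts per library given above. Eef1a2, the muscle and neuron form of eEF1A, had 0 to 12 counts per library, and Eif4ebp3, a further 4E-BP gene, had 2 to 14. These 3 genes were tested in no comparison, and Eef1akmt3, a lysine methyltransferase of eEF1A, was tested in all but the germ cell dex comparison.

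The first comparison set germ cells against somatic cells in the saline libraries. Most factors differed, in both directions and by modest amounts, while a few members of multi-gene families differed by several fold. edgeR's quasi-likelihood test called 47 of the 64 members tested at a Benjamini-Hochberg adjusted p of at most 0.05, 28 higher and 19 lower in germ cells. Of all 17941 genes tested, 86.1% were called, 43.1% higher and 42.9% lower, beside 73.4% of the members. The median log2 difference was 0.11 over members and 0.0047 over all genes, and the median size of a difference, either way, was 0.627 on the log2 scale for members and 1.60 for all genes.

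**Figure D1:**
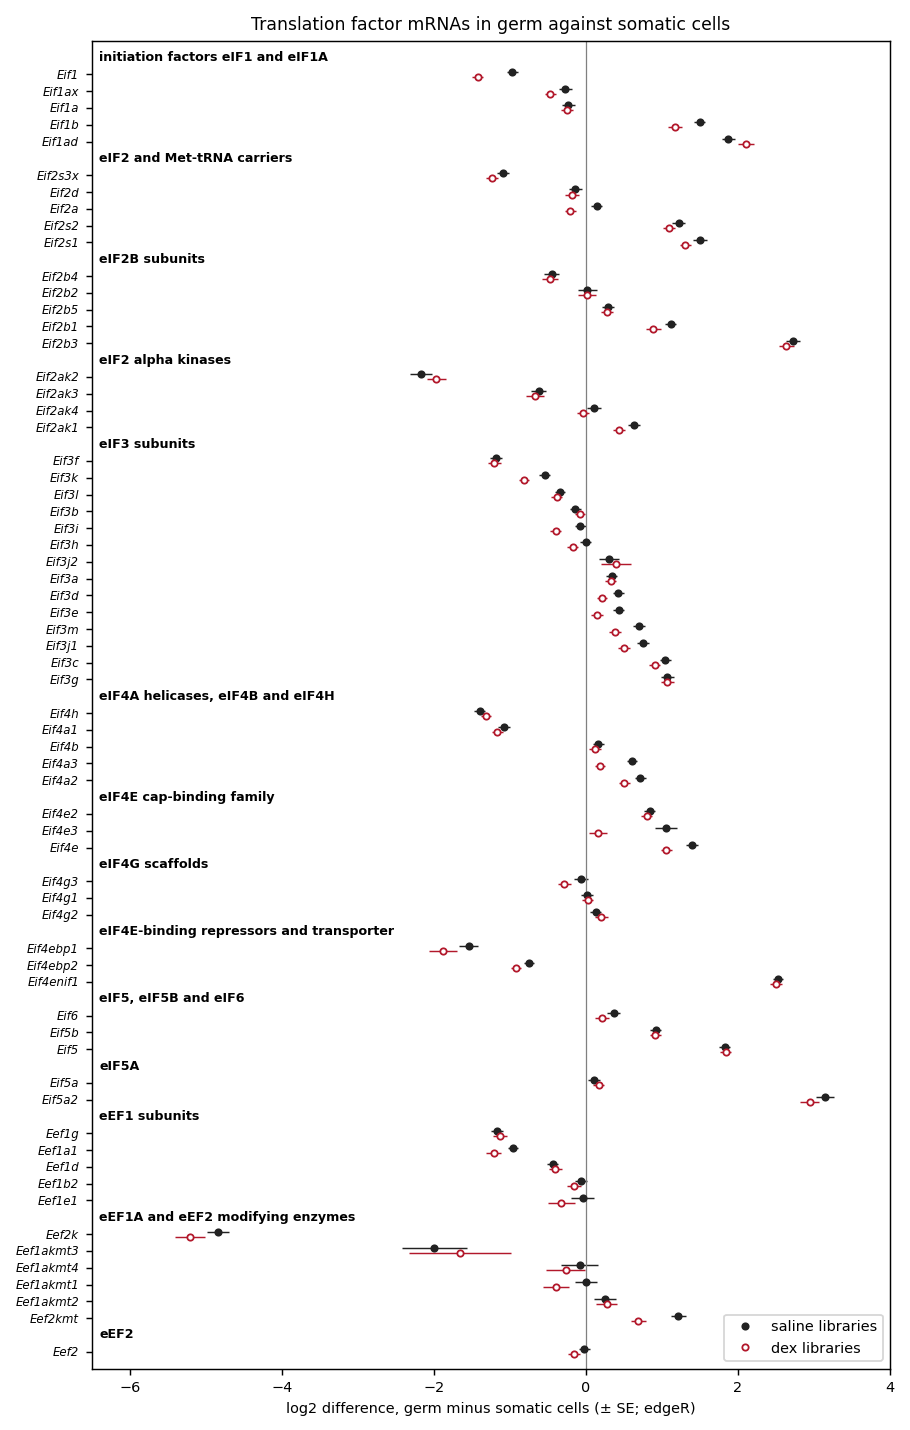
Log2 difference in level, germ minus somatic cells, for the 64 members tested, by family, in saline libraries (filled) and dex libraries (open), with the standard error of the edgeR fit. Most points lie within 2 log2 units of 0, Eef2k lies at -4.84 (saline) and -5.21 (dex), and Eif5a2 at 3.15 and 2.94.

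Eef2k, the kinase that phosphorylates and inhibits eEF2, was the most strongly somatic member. Its level was 1.81, 2.91 and 1.89 CPM in the 3 germ saline libraries and 62.3, 65.1 and 64.2 CPM in the 3 somatic saline libraries. The groups were far apart, with a log2 difference of -4.84 (SE 0.15, adjusted p = 2.36e-13), 28.6-fold lower in germ cells. The germ level was 2.83%, 4.56% and 2.95% of the somatic mean, beside 2.64%, 4.65% and 5.72% for the summed pregranulosa markers in the same libraries. The other marker lists gave 0.544% to 0.878% (stromal), 0.326% to 0.411% (erythroid), 14.3% to 16.4% (endothelial) and 15.3% to 19.98% (macrophage) of their somatic means. How much of the germ library signal came from somatic cells was not tested. Its substrate Eef2 had a log2 difference of only -0.02 (SE 0.07, adjusted p = 0.83).

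At the other end stood Eif5a2. eIF5A carries hypusine, a modified lysine, and helps the ribosome through difficult peptide bonds, and Eif5a2 is the restricted copy of the broadly expressed Eif5a. Eif5a2 measured 134, 95.5 and 111 CPM in germ saline libraries and 13.9, 12.2 and 12.7 CPM in somatic saline libraries. All germ libraries exceeded all somatic ones, by 8.85-fold (log2 difference 3.15, SE 0.12, adjusted p = 2.72e-12). Eif5a itself stood at 330 to 381 and 325 to 364 CPM, ranges that overlapped, with a log2 difference of 0.11 (SE 0.08, adjusted p = 0.206). The first 60 coding bases of the 2 transcripts (GENCODE M21) are given to show how reads of the copies can be told apart, with the 17 bases that differ in capitals.

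Eif5a: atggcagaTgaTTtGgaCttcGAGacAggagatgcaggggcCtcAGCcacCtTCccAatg
Eif5a2: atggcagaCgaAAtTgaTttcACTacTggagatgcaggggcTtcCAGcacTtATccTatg

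Over the whole coding sequence this pair was 72.7% identical. By FPKM, Eif5a2 made up 13.0% ± 2.86 (SD, n = 3) of the summed pair in germ saline libraries and 1.77% ± 0.188 in somatic saline libraries. Similar shifts within a pair were seen for eIF1 and for eIF4A. Eif1b, the second copy of the start codon fidelity factor eIF1, was 66.9% ± 0.151 of the pair with Eif1 in germ saline and 26.8% ± 1.64 in somatic saline libraries. Here both copies moved, since Eif1b was higher in germ cells by a log2 difference of 1.498 (SE 0.07) and Eif1 lower by one of -0.96 (SE 0.07). Eif4a2, the second cytoplasmic eIF4A helicase, was 73.5% ± 1.06 of its pair with Eif4a1 in germ saline and 44.5% ± 2.24 in somatic saline libraries, with log2 differences of 0.72 for Eif4a2 (SE 0.07) and -1.07 for Eif4a1 (SE 0.07). In each pair the germ and somatic ranges of the share did not overlap over the 6 libraries of each cell type. Coding identity was 81.1% for the eIF1 pair and 77.8% for the eIF4A pair. Of the 100-base stretches of the longest transcript, 60.8% for Eif4a1 and 4.94% for Eif4a2 also occur in other genes. For Eif1 and Eif1b the figures were 19.2% and 0%, so the shares of both pairs may be affected by ambiguous reads.

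**Figure D2:**
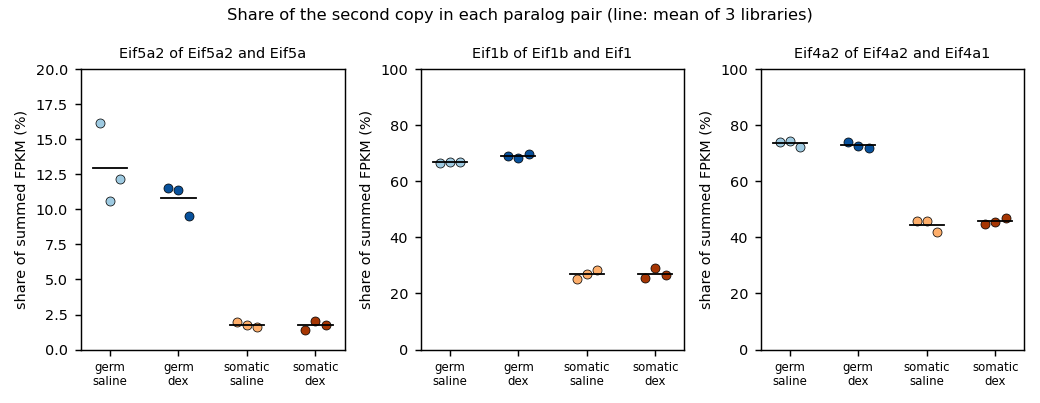
Share of the second copy in the summed FPKM of 3 paralog pairs, in percent, for each of 12 libraries (points) with the group mean (line). The Eif1b share was 66.7% to 69.8% in germ libraries and 25.1% to 29.0% in somatic libraries, and dex and saline libraries of a cell type lie close together in all 3 pairs.

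The subunits of eIF2 did not shift together. Eif2s1 (alpha, the subunit that is phosphorylated under stress) was at 170, 198 and 210 CPM in germ saline and at 73.4, 69.6 and 63.6 CPM in somatic saline libraries. Eif2s2 (beta) was likewise higher in germ cells, by log2 differences of 1.499 (SE 0.09) for alpha and 1.22 (SE 0.09) for beta. Eif2s3x, the X-linked gene of the GTP-binding gamma subunit, went the opposite way, at 62.2, 54.0 and 63.8 CPM against 139, 123 and 124 CPM, a log2 difference of -1.09 (SE 0.08, adjusted p = 8.72e-09). The ratio of gamma to alpha FPKM was therefore 0.407 ± 0.0613 (SD, n = 3) in germ saline and 2.43 ± 0.119 in somatic saline libraries. For Eif2s3x, 35.3% of the 100-base stretches of its longest transcript also occur in a transcript of another gene (Gm2223), so that some of its reads may be ambiguous.

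Among the exchange factor eIF2B, the catalytic subunit Eif2b5 was higher in germ cells by a log2 difference of 0.29 (adjusted p = 0.00367, not called without somatic saline replicate 1), Eif2b1 by 1.11 and Eif2b3 by 2.72 (SE 0.10), whereas Eif2b4 was lower. Eif2b3 was at 112, 138 and 135 CPM in germ saline and at 20.001, 19.9 and 18.9 CPM in somatic saline libraries, 6.61-fold apart. In FPKM, the highest of the 5 eIF2B subunits exceeded the lowest by 3.04-fold in germ saline and by 7.996-fold in somatic saline libraries, where Eif2b3 was the lowest. Of the 4 eIF2 alpha kinases, Eif2ak2 (PKR, which senses double-stranded RNA) was lower in germ cells by a log2 difference of -2.17 (SE 0.14) and Eif2ak3 (PERK, the sensor of endoplasmic reticulum stress) by one of -0.62. Eif2ak1 (HRI, the haem-regulated kinase) was higher, by a log2 difference of 0.63, and Eif2ak4 (GCN2, which senses uncharged tRNA) had one of 0.11 (adjusted p = 0.309).

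The eIF3 subunits spread to both sides. Of 14 members, 8 were higher and 3 lower in germ cells, 78.6% called beside 86.1% of all genes. Eif3g (log2 difference 1.07) and Eif3c (1.05) were highest relative to somatic cells, and Eif3f, at -1.18, was lowest. Eif3a, the scaffold of the complex, had a log2 difference of 0.34 and Eif3e one of 0.43. Eif3j1 and Eif3j2 are 99.2% identical in coding sequence, and 84.0% of the 100-base stretches of Eif3j2 also occur in Eif3j1. How reads with several matches were handled is not given, so neither count can be taken to stand for its gene alone.

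All 3 eIF4E genes tested were higher in germ cells, beside 43.1% of all genes. Eif4e was at 329, 281 and 322 CPM in germ saline against 124, 115 and 116 CPM in somatic saline libraries, a log2 difference of 1.40 (SE 0.08, adjusted p = 2.16e-10). Eif4e2 (4EHP, a cap-binding repressor) and Eif4e3 (an atypical family member) were higher by log2 differences of 0.84 and 1.06. None of the 3 genes of the eIF4G scaffold passed edgeR's test, with log2 differences of 0.02 for Eif4g1 and -0.06 for Eif4g3 and no unadjusted p under 0.05. DESeq2 called 1 of them, Eif4g2, a gene for an eIF4G-like protein that does not bind eIF4E (log2 difference 0.13 and adjusted p = 0.0946 by edgeR). So did edgeR with RLE size factors, another scaling, and without germ saline replicate 1. In dex libraries edgeR called Eif4g2 higher (log2 difference 0.21, adjusted p = 0.0306) and Eif4g3 lower (-0.28, adjusted p = 0.00912) in germ cells. These were lost without somatic dex replicate 2 (Eif4g2) and without germ dex replicate 3 or with DESeq2 (Eif4g3). The repressors of eIF4E were split. Eif4ebp1 and Eif4ebp2 were lower in germ cells by log2 differences of -1.54 and -0.75, whereas Eif4enif1 (4E-T, which carries eIF4E into the nucleus and into repressed granules) was at 568, 584 and 601 CPM in germ saline and 106, 101 and 99.0 CPM in somatic saline libraries, 5.77-fold higher in germ cells (log2 difference 2.53, SE 0.07). The FPKM ratio of Eif4ebp1 to Eif4e was 0.0846 ± 0.0101 (SD, n = 3) in germ saline and 0.647 ± 0.0315 in somatic saline libraries. Eif4h, a cofactor of eIF4A, was lower in germ cells by a log2 difference of -1.39 (SE 0.07).

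Of the late initiation factors, Eif5, the GTPase activator of eIF2, was at 929, 929 and 983 CPM in germ saline and 271, 282 and 253 CPM in somatic saline libraries, a log2 difference of 1.83 (SE 0.07). Eif6, which keeps ribosomal subunits apart, had one of 0.36 (SE 0.08). eIF1 and eIF5 are known to oppose each other at the start codon, and the FPKM ratio of Eif1 to Eif5 was 0.577 ± 0.00361 (SD, n = 3) in germ saline and 3.997 ± 0.139 in somatic saline libraries. For Eif1, 19.2% of 100-base stretches also occur in other genes. Eif1ad, a protein with an eIF1A-like domain, was higher in germ cells by a log2 difference of 1.88, and Eif1ax was lower by one of -0.27. The eEF1 subunits tested were either lower in germ cells (3 of 5, beside 42.9% of all genes) or not called. Eef1a1 was lower with a log2 difference of -0.96 (SE 0.07, adjusted p = 3.41e-09), and Eef1g, a subunit of its exchange factor, with one of -1.17. Their shares of ambiguous 100-base stretches were 26.7% and 49.4%, and that of Eif4a1 was 60.8%. Of the enzymes acting on elongation factors, Eef2kmt, a lysine methyltransferase of eEF2, was higher in germ cells by a log2 difference of 1.22, and Eef1akmt3 was lower by one of -1.99 on only 5 to 29 counts per saline library.

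The same comparison among dex libraries, which share no library with the saline ones, called 48 of 64 members, 25 higher and 23 lower in germ cells, beside 84.3% of 18171 genes (42.0% higher, 42.2% lower). DESeq2 called 48 as well, but as 30 higher and 18 lower. The median log2 difference of members was 0.018. Both comparisons called 43 members in the same direction, 91.5% of the saline calls and 89.6% of the dex calls, and none in opposite directions. The matching share over all genes was not computed. With 86.1% (saline) and 84.3% (dex) of all genes called, this agreement is not shown to be particular to the members. The largest change of standing was that of Eif4e3, whose log2 difference was 1.06 in saline and 0.16 (SE 0.12, adjusted p = 0.225) in dex libraries.

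Genes beside the set in the same pathways were examined from lists of 54 symbols. In saline libraries 26 of 51 tested were higher and 15 lower in germ cells, 80.4% called beside 86.1% of all genes. Of 10 tested genes of the integrated stress response, the programme set off by eIF2 alpha phosphorylation, 7 were lower in germ cells and none was higher, with a median log2 difference of -1.31. Over all genes, 42.9% were lower and 43.1% higher. The largest differences were those of the transcription factor Atf3 (log2 difference -5.91), the serine synthesis enzyme Phgdh (-4.45) and the phosphatase subunit Ppp1r15a (-3.32). All 5 genes of hypusine synthesis and selenocysteine decoding were higher in germ cells, beside 43.1% of all genes. Their log2 differences went down to 0.33 and their adjusted p up to 0.0356. In dex libraries 26 of 52 were higher and 18 lower, 84.6% called beside 84.3% of all genes. There 8 of 11 integrated stress response genes were lower and 1, the stress-induced Sesn2 (log2 difference 0.83), was higher. Of the 5 hypusine and selenocysteine genes 4 were higher, with Dhps, the deoxyhypusine synthase gene, at -0.10 (adjusted p = 0.409). Over all genes in dex libraries, 42.2% were lower and 42.0% higher. Atf3 (-5.67), Phgdh (-4.02) and the poly(A)-binding protein gene Pabpc4 (-3.33) led.

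The next comparison asked how somatic cells of the ovary responded to dex. Of 64 members tested, 2 rose, Eef2k and Eif4e3, and none fell. Of all 16556 genes tested, 8.18% were called, 4.81% higher and 3.36% lower, beside 3.13% of the members. The median log2 difference of members was 0.043 and that of all genes 0.000142. Besides these 2 genes the members' log2 differences lay between -0.24 and 0.31.

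Eef2k was at 62.3, 65.1 and 64.2 CPM in somatic saline libraries and at 186, 176 and 159 CPM in somatic dex libraries. Every dex library stood far above every saline library, a rise of 2.71-fold (log2 difference 1.44, SE 0.07, adjusted p = 4.59e-08). The call held under all 12 alternative fits. In counts, the saline libraries held 990, 1010 and 1059 and the dex libraries 3077, 3118 and 2666 fragments. Its target Eef2 had a log2 difference of 0.10 (SE 0.06, adjusted p = 0.393), so that the FPKM ratio of kinase to substrate went from 0.0106 ± 0.00052 (SD, n = 3) to 0.0269 ± 0.00245. An antisense gene within Eef2k, Gm15774, had 9 to 15 counts in somatic saline and 22 to 84 in somatic dex libraries, and since a strand setting was not stated the 2 genes cannot be fully separated, although the antisense counts were far below those of Eef2k. Gm45047, which overlaps Eef2k on the same strand, had 2 to 6 counts in somatic saline and 20 to 24 in somatic dex libraries. Of the 8 pregranulosa markers 1 was lower and none higher after dex, and of the 6 macrophage markers 4 were lower and none higher. Among 8 stromal and 8 erythroid markers 1 of each was higher and none lower. Of 6 endothelial markers 1 was higher and 2 lower, and of 5 germ cell markers tested 1 was higher. Over all genes, 4.81% were higher and 3.36% lower. Erythroid sums ran from 3332 to 16541 CPM over the somatic dex libraries. The part of cell composition in the Eef2k rise was not tested.

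Eif4e3 was at 10.3, 11.4 and 12.7 CPM in somatic saline and at 20.1, 17.6 and 19.9 CPM in somatic dex libraries. The groups did not overlap, and the rise was 1.67-fold (log2 difference 0.74, SE 0.13, adjusted p = 0.00295), called in all 12 alternative fits. It was carried by 163 to 209 counts per saline library and 312 to 335 per dex library. Its relatives did not pass the test, with log2 differences of 0.05 for Eif4e (SE 0.07, adjusted p = 0.758) and 0.05 for Eif4e2 (SE 0.06, adjusted p = 0.707). By FPKM, Eif4e3 went from 18.8% ± 2.17 to 27.3% ± 2.40 (SD, n = 3) of its sum with Eif4e. The germ cell markers, high in the cells where Eif4e3 is also higher, summed to 4.97 to 8.07 CPM in somatic saline and 17.3 to 24.9 CPM in somatic dex libraries, against at least 2686 CPM in germ libraries, and their part in the result was not tested. Gm44104 and Gm20696 overlap Eif4e3 on its strand. They had 0 to 2 and 0 to 4 counts in somatic saline and 3 to 11 and 1 to 6 in somatic dex libraries. Of the 100-base stretches of Eif4e3, 7.53% also occur in Gm20696.

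**Figure D3:**
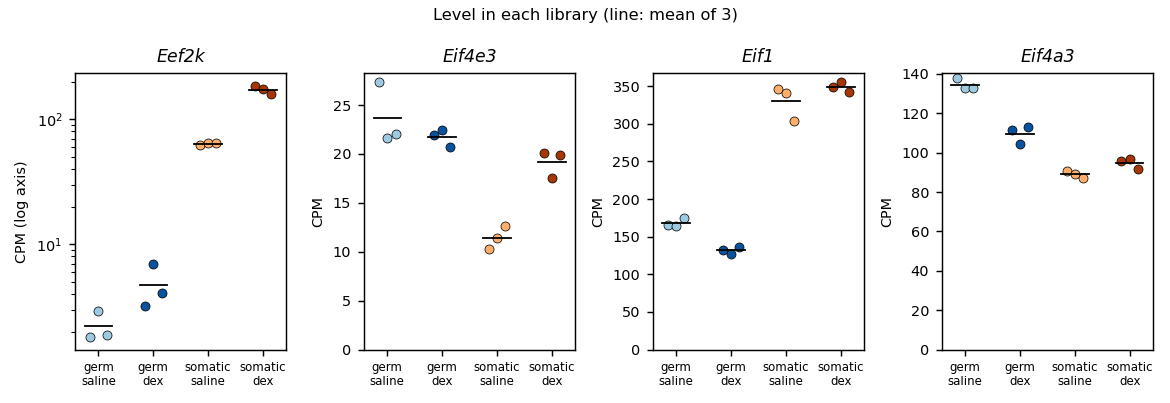
Level in CPM of Eef2k (log axis), Eif4e3, Eif1 and Eif4a3 in each of 12 libraries (points), with the mean of each group of 3 (line). Somatic Eef2k rose from 62.3 to 65.1 CPM in saline to 159 to 186 CPM in dex libraries, somatic Eif4e3 from 10.3 to 12.7 to 17.6 to 20.1 CPM, and germ Eif1 was at 164 to 174 CPM in saline and 127 to 136 CPM in dex libraries.

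The members nearest to a call in somatic cells were Eif4ebp1, Eef2kmt and Eef1a1. Eif4ebp1 was at 28.9, 26.2 and 28.9 CPM in saline and 33.9, 39.7 and 31.2 CPM in dex libraries, a log2 difference of 0.31 (SE 0.11, adjusted p = 0.102). Eef2kmt had one of 0.31 (adjusted p = 0.113) and Eef1a1 one of 0.14 (adjusted p = 0.117), which DESeq2 called. The dex values of Eif4ebp1 all lay above its saline values, but the difference passed the test only without somatic dex replicate 3 (adjusted p = 0.0244). None of the 4 eIF2 alpha kinases passed edgeR's or DESeq2's test, and their log2 differences lay between -0.10 and 0.05. The log2 differences of the core factors Eif2s1 (0.15), Eif2s2 (0.07), Eif3a (-0.02), Eif4a1 (-0.07), Eif4g1 (-0.04) and Eif5a (-0.11) lay between -0.11 and 0.15, with adjusted p from 0.237 to 0.9.

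Of 52 tested pathway genes in somatic cells, 3 rose and 1 fell, 7.69% called beside 8.18% of all genes. The 3 largest were Trib3, a pseudokinase induced by stress, with a log2 difference of 1.70 (SE 0.47, adjusted p = 0.0425) on a mean of only 0.567 CPM in saline and 1.86 CPM in dex libraries, Ddit4, an inhibitor of the mTOR complex that controls the 4E-BPs and eEF2K, with one of 0.57 (SE 0.11, adjusted p = 0.00634), and Dhx29, a ribosome-bound initiation helicase, which fell by 0.46 on the log2 scale (SE 0.08, adjusted p = 0.00426).

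In germ cells the same dex treatment moved few genes. Of 16857 genes tested, 0.208% were called, 0.089% higher and 0.119% lower, and of 63 members 1 was called, Eif1. The median log2 difference of members was -0.021. Eif1 was at 166, 164 and 174 CPM in germ saline and 133, 127 and 136 CPM in germ dex libraries. The dex libraries all lay below the saline libraries, a fall of 0.34 on the log2 scale (SE 0.06, adjusted p = 0.0495). The call sat at the threshold, and it was lost with plain library totals and on leaving out any one of the 6 germ libraries, with adjusted p up to 0.345. At an unadjusted p under 0.05 there were 10 of the 63 members, beside 1963 of the 16857 genes. The second copy of Eif1, Eif1b, had a log2 difference of -0.19 (SE 0.07, adjusted p = 0.305).

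Eif4a3, the helicase of the exon junction complex, was at 138, 133 and 133 CPM in germ saline and 111, 104 and 113 CPM in germ dex libraries. These groups did not overlap either, but the log2 difference of -0.29 (SE 0.06) missed the threshold, with an adjusted p = 0.104. It was called with no low-count filter, by DESeq2 and with all 12 libraries in the fit, at an adjusted p down to 0.0140. Eif4e, at 329, 281 and 322 CPM and at 271, 252 and 252 CPM, had a log2 difference of -0.26 (SE 0.07, adjusted p = 0.222). Eef2k was at 1.81, 2.91 and 1.89 CPM in germ saline and 3.21, 6.92 and 4.08 CPM in germ dex libraries, a log2 difference of 1.11 (SE 0.32, adjusted p = 0.242) that rests on 28 to 107 counts per library. As shares of the somatic mean of the same treatment, these germ dex levels were 1.85%, 3.99% and 2.35%, and the pregranulosa markers in the same libraries stood at 2.12%, 10.0% and 7.51%. The other lists stood at 0.597% to 1.09% (stromal), 0.106% to 0.520% (erythroid), 16.9% to 20.6% (endothelial) and 35.8% to 51.4% (macrophage), and the part of carry-over in the Eef2k values was not tested. Eif5a2 had a log2 difference of -0.30 (SE 0.11, adjusted p = 0.314). Eif4e, Eef2k and Eif5a2 were called with no low-count filter and in no other alternative, at adjusted p of 0.0271, 0.0140 and 0.0114. None of 52 pathway genes tested was called in germ cells by edgeR. At an unadjusted p under 0.05 there were 6, beside 1963 of all 16857 genes tested. DESeq2 called 2, beside 158 of 18367 genes.

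**Figure D4:**
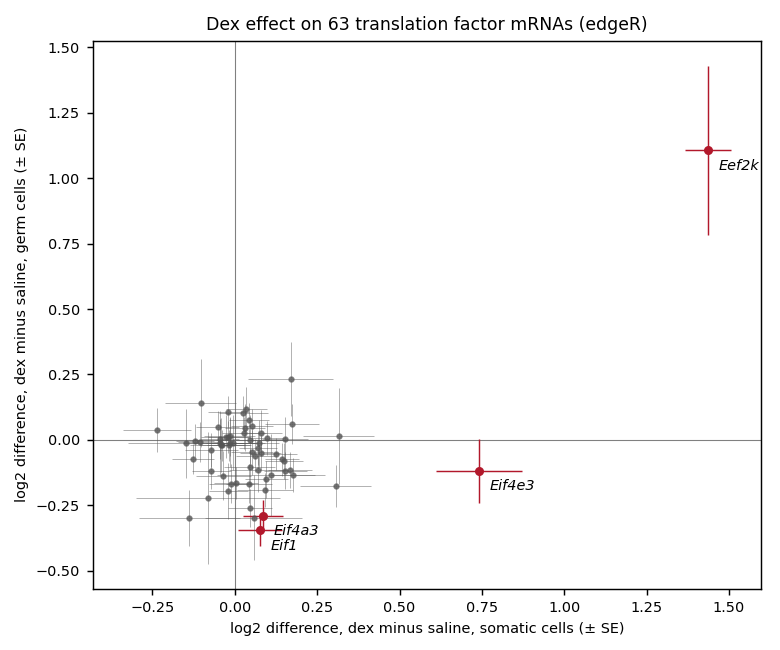
Log2 difference of dex minus saline in somatic cells (horizontal) and germ cells (vertical) for 63 members, with standard errors from the edgeR fits, and with the members called in any dex test in red. Eef2k lies at 1.44 and 1.11, Eif4e3 at 0.74 and -0.12, and Eif1 and Eif4a3 lie below 0 on the vertical axis at 0.08 and 0.09 on the horizontal one.

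Whether the response to dex differed between the cell types was tested over all 12 libraries, as the germ effect minus the somatic effect. Of 19390 genes, 1.62% were called, 0.49% higher and 1.13% lower, and of 64 members 3 were called, all lower. Eif4e3 had an effect of -0.12 in germ cells and of 0.74 in somatic cells, a difference of -0.87 on the log2 scale (SE 0.18, adjusted p = 0.0226). For Eif1, with effects of -0.34 and 0.08, the difference was -0.43 (SE 0.09, adjusted p = 0.0261), and for Eif4a3, with effects of -0.29 and 0.09, it was -0.39 (SE 0.09, adjusted p = 0.0327). Each of the 3 calls depended on single libraries. That of Eif4e3 was lost without germ saline replicate 1, germ dex replicate 2 or 3, somatic saline replicate 1 or 2, or somatic dex replicate 1, with adjusted p of at most 0.0644. That of Eif1 was lost without germ saline replicate 3, germ dex replicate 2, somatic saline replicate 2 or 3, or somatic dex replicate 1 or 2, and with plain library totals, with adjusted p of at most 0.102. That of Eif4a3 was lost without any of 11 libraries, the exception being somatic dex replicate 3, with no filter and with plain library totals, with adjusted p of at most 0.126. For Eef2k the difference was -0.35 (SE 0.29, adjusted p = 0.614), so a difference between its effects in the 2 cell types was not shown.

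The members leaned to the lower side in this test, with 42 of 64 log2 differences below 0, beside 9583 of 19390 over all genes. The median was -0.11 for members and 0.00505 over all genes. Members are related genes, and no test was run on the set. With plain library totals in place of TMM the median of the members was -0.042, and the part of scaling in the lean was not tested. Eef2kmt (-0.50, adjusted p = 0.0822), Eif2a, an alternative carrier of initiator tRNA (-0.32, adjusted p = 0.111), and Eif4e (-0.32, adjusted p = 0.16) were next in line. Of 52 pathway genes tested, Pabpc1, the main cytoplasmic poly(A)-binding protein and a partner of eIF4G, was called, with effects of -0.28 in germ and 0.16 in somatic cells and a difference of -0.45 (SE 0.09, adjusted p = 0.0207).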

How the data were processed

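The authors selected poly-A RNA, made random-hexamer cDNA, and had paired reads aligned to mm10 with HISAT2 2.0.5 and counted with featureCounts 1.5.0-p3, per the labels. The deposited raw counts per gene were used for all tests. The FPKM values deposited by the authors, made from those counts, gene length and depth, were used only for levels per length. The authors' own DESeq2 1.20.0 comparison tables were not used. Strand setting and handling of reads with several matches are not given in the sources used here, and 38 members overlap another gene.

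edgeR 4.0.16 in R 4.3.3 (TMM, filterByExpr, quasi-likelihood test, Benjamini-Hochberg over all genes tested, at most 0.05) was fitted within each comparison, and over 12 libraries for the difference between cell types. DESeq2 1.42.0, other scalings, no filter, a replicate block, all libraries and leave-one-out fits were alternatives. The method was tested on simulated data. Standard errors are those implied by the F statistic. The smallest detectable level covers counting error only.

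Members and lists were chosen with earlier results of these data known. Named were a fixed group of core members, saline germ-soma calls of at least 1 on the log2 scale, all dex calls with the 3 nearest misses, and the 3 largest pathway calls. Eif2b4, Eif3j1, Eif3j2, Eif3c, Eif3g, Eif2a, Eif4g2, Eif1b in germ cells, Sesn2, Dhps and members named for promoter motifs were also named after their values were seen. So were the overlapping genes Gm15774, Gm45047, Gm44104 and Gm20696. Promoters came from RefSeq (GRCm38.p6) and transcripts from GENCODE M21. Ambiguity was measured as the share of 100-base stretches of a member's longest transcript that occur in another gene's transcript.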

Additional observations from a re-analysis of the deposited data

Results flagged for a closer look

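The dex effect was called different between germ and somatic cells, by the interaction term over 12 libraries, for Eif4e3 (-0.87 on the log2 scale, germ minus somatic), Eif1 (-0.43) and Eif4a3 (-0.39). For Eif4e3 the somatic effect made up most of the difference, and for Eif1 and Eif4a3 the germ effect did. The germ effect of Eif4a3 was itself not called. Each of the 3 calls depended on single libraries, and 0 to 3 members were called on leaving out 1 library at a time.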

How the results depend on the processing

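Over the named genes 2142 alternative values were computed. Of these, 2073 kept their side of the threshold, 24 passed it newly and 45 no longer passed it. No called difference changed direction. Among the 2073 are differences that were never called and changed sign, such as that of Eef2 between germ and somatic saline libraries. In germ cells the count of members called was 1, and it was 5 with no low-count filter, 0 with plain library totals, 2 with DESeq2, 2 with all 12 libraries, and 0 in every leave-one-out fit. The 3 calls of the difference between cell types became 1 with plain library totals, 5 with DESeq2 and 0 to 3 on leaving out a library. The median of members in the difference was -0.11 and became -0.042 with plain library totals, and that of germ against somatic cells in dex libraries went from 0.018 to 0.099 with DESeq2. Over all genes, the germ dex calls were 35, and 420 with no filter, 158 with DESeq2 and 64 with all libraries, the somatic dex calls were 1354 and 803 with all libraries, and the difference had 314 calls, 727 with no filter and 620 with DESeq2. The cause of these shifts was not tested. Replicate numbers did not pair the samples by the rule that every pair's correlation exceed 0.1. For germ against somatic cells, same-numbered pairs stood at 0.071 to 0.131 and all others below 0, so that each sample correlated best with its own number (a hint from the data, not the design), and for dex against saline the lowest same-numbered pair was at -0.004 in germ and -0.006 in somatic cells. With a replicate block the members called were 46 (saline) and 48 (dex) for germ against somatic cells, 0 for dex in germ cells (the call of Eif1 was lost), 2 in somatic cells and 3 for the difference.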
